A study of Mus musculus with 6 samples.

Results

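The R-spondin, Lgr and Rnf43/Znrf3 axis comprises 9 of the 18211 genes in the deposited expression table, chosen by name: the secreted ligands Rspo1, Rspo2, Rspo3 and Rspo4, the receptors Lgr4, Lgr5 and Lgr6, and the transmembrane E3 ubiquitin ligases Rnf43 and Znrf3. All 9 were present in the table. They were followed in RNA-seq of oligodendrocyte progenitor cells (OPCs, the glial progenitors that generate myelinating oligodendrocytes), isolated from the cerebral hemispheres of C57BL/6 mouse pups on postnatal day 7 with an antibody against Pdgfrα and sequenced without culture. The comparison was between 3 WT libraries, from wildtype mice without CreERT, and 3 DISC1-Δ3 libraries, from NG2-CreERTM: DISC1 exon3 fl/+ mice. In the DISC1-Δ3 mice, tamoxifen removes exon 3 from 1 of the Disc1 alleles in cells in which the NG2 promoter drives Cre, and mice of both genotypes received tamoxifen by gavage over the 4 days up to isolation. The sources do not say whether the libraries of a genotype came from separate animals or from pooled litters, so p-values measure the spread between these samples, which may be technical.

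Rnf43 and Znrf3 are membrane-spanning enzymes that ubiquitinate Frizzled receptors and their Lrp co-receptors, which removes these Wnt receptors from the cell surface. R-spondins bind an Lgr receptor and a ligase at the same time, and clearance of the ligase from the membrane leaves more Frizzled and Lrp available to Wnt. Rnf43 and Znrf3 are themselves transcribed in response to β-catenin in many tissues, so they are known as feedback inhibitors of the pathway, which in the oligodendrocyte lineage is known for its influence on the timing of differentiation.

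Rounded expected counts amounted to 13716619 to 16417219 reads per WT library and 14229954 to 16138674 reads per DISC1-Δ3 library, so that 1 read corresponded to 0.0609 to 0.0729 CPM (counts scaled to 1000000 per library). Levels are given in RPKM (reads per kilobase and 1000000 reads), and genotypes were compared by edgeR's quasi-likelihood test over the 13792 genes whose RPKM reached 0.5 in 3 or more of the 6 libraries. Disc1 itself, the targeted gene, had a mean RPKM of 3.55 ± 0.238 (SD, n = 3) in WT and 2.72 ± 0.24 (SD, n = 3) in DISC1-Δ3, a log2 difference of -0.45 (edgeR, standard error 0.088, adjusted p = 0.000528). These are values of the whole gene and do not resolve exon 3. Cspg4, which encodes NG2 and whose promoter drives the Cre, was higher by 0.46 on the log2 scale (edgeR, standard error 0.062, adjusted p = 1.15e-05). DISC1-Δ3 replicate 3 stood apart from the other libraries of its genotype, with a chi-square of its counts, divided by the degrees of freedom, of 5.39 and 4.99 against them, whereas the other pairs of replicates were between 1.8 and 2.97. The log2 fold changes of the tested members are therefore also given without it.

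The labelled cell type was checked against marker genes. All 6 OPC markers examined were expressed, with a summed RPKM of 452 to 469.8 in WT and 549 to 568 in DISC1-Δ3 libraries, led by the transcription factor Olig1. Pdgfra, whose product was the target of the antibody used for isolation, had a mean RPKM of 17.5 in WT and 25.9 in DISC1-Δ3. Microglial transcripts were far more abundant than those of OPCs, with C1qa at a mean RPKM of 3312 in WT and 2192 in DISC1-Δ3. The 6 microglial markers, led by the complement gene C1qa, summed to an RPKM of 6381 to 6572 in WT and 4446 to 4600.1 in DISC1-Δ3. All 6 were called lower in DISC1-Δ3, beside 19.5% of all tested genes. None of the markers of any cell type examined was at 0 in all libraries, which a few reads suffice to meet and which shows no mixture by itself. By the size of the microglial sums, the libraries hold RNA of a mixed preparation. Levels of the members are therefore those of the whole preparation and not of OPCs alone. In such bulk samples, fewer cells of a type and less RNA per cell cannot be told apart.

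Across the members, 7 of 9 passed the filter on low levels, and of these 5 were higher in DISC1-Δ3, 1 was lower and 1 did not pass the test. Among all 13792 genes, 20.4% were higher, 19.5% were lower and 39.9% were called in either direction. With scaling by library totals, 69.2% of all calls were higher rather than 51.1%, and the members kept their directions under both scalings. Rspo4 and Rnf43 passed the filter through their DISC1-Δ3 libraries, since fewer than 3 WT libraries reached the required RPKM. The filter thus favoured a difference in these genes, and the count of tested members is a description. In a fit without the filter, which takes in all 9 members, Lgr5 was also higher, against a background of 15.9% of genes higher and 15.7% lower. The RPKM of the genotypes did not overlap for the 7 tested members, Rspo4 and Rnf43 among them, and 52.0% of all tested genes had no overlap. Of the 2 members below the filter, Lgr5 had no overlap and Rspo2 did.

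**Figure D1:**
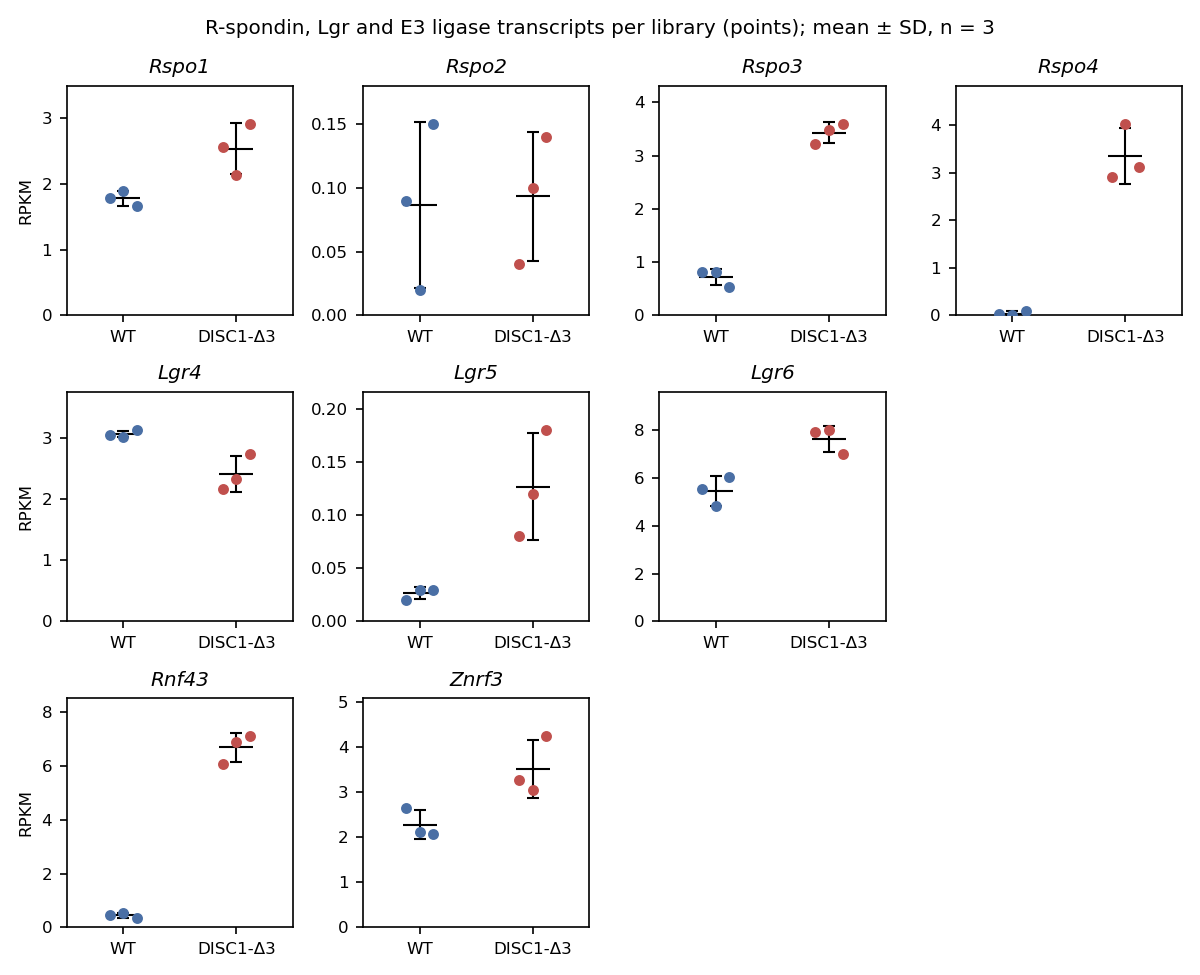
RPKM of the 9 members in each library, on linear axes that start at 0 and differ in scale between panels. Points are single libraries, bars are mean ± SD with n = 3 per genotype. Rnf43, Rspo4 and Rspo3 show the widest separation, with Rnf43 at 0.34 to 0.54 in WT and at 6.08 to 7.10 in DISC1-Δ3, and Rspo2 is the panel in which the genotypes overlap.

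The start regions of the members with the largest differences, Rnf43 and Rspo4, and of Lgr4, the member that fell, are shown here because these genes moved most or in the opposite direction. The sequences are those of RefSeq on build GRCm38.p6 (equivalent to mm10, the build that the submitters' processing notes name), from 250 bases before to 50 bases after an annotated transcription start, in the direction of the gene. Capitals mark the 50 bases from the start onward. Rnf43 has 2 starts in this table, at chr11:87662837-87663136 and chr11:87699647-87699946, Rspo4 has its window at chr2:151842677-151842976 and Lgr4 at chr2:109917397-109917696, all on the plus strand. The Rspo4 window and the second Rnf43 window lie within the annotated genes, which begin at chr2:151842647 and chr11:87663087. Their lowercase bases precede the start used here but are not upstream of the gene.
Rnf43 first start: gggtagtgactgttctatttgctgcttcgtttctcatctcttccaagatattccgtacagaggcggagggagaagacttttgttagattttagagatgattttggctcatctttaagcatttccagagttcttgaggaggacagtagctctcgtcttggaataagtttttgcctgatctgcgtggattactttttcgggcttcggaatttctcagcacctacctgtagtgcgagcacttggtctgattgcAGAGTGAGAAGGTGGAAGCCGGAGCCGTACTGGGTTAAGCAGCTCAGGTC
Rnf43 second start: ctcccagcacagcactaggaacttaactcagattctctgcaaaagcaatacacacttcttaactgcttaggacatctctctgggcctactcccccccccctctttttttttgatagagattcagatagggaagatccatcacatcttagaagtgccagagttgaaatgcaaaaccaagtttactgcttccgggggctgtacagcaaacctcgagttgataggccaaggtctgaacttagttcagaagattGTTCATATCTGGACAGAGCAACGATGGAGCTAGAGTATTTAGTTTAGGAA
Rspo4 start: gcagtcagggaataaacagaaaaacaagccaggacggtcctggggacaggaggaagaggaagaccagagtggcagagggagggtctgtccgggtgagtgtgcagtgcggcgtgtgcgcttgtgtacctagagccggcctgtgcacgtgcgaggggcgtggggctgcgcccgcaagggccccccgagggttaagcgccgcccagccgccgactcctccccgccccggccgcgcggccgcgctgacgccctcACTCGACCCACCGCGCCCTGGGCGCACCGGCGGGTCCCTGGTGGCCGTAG
Lgr4 start: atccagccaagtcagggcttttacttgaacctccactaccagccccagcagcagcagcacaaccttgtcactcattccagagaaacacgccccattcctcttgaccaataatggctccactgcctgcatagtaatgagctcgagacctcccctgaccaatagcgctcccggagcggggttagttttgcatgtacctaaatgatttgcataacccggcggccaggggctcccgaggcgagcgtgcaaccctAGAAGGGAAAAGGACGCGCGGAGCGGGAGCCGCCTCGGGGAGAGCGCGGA

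Both Rnf43 windows were poorer in G and C than those of the other members that had a window. They held 46.7% and 44.3% G or C, whereas the windows were at 71.0% for Rspo4, 69.0% for Rspo1, 67.7% for Lgr6 and 58.3% for Lgr4, and the median of all 32851 windows in the table was 52.7%. Windows were available for 5 of the 9 members, and Rspo2, Rspo3, Lgr5 and Znrf3 had none. The core of the TCF/LEF binding motif, through which β-catenin reaches DNA, was searched on both strands in its forms CTTTGAT or CTTTGAA, and likewise CTTTGTT or CTTTGTA, which do not overlap each other at the same position. It was found in 0 of the 6 windows of the 5 members that had one, and 16.9% of all windows held at least 1 form. The absence of these letters concerns the 300 bases searched and says nothing about the binding of a factor.

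Among the ligands, Rspo4 and Rspo3 rose strongly, Rspo1 did not pass the test, and Rspo2 was below the filter and not tested. Rspo4 (chr2:151842647-151874668), the R-spondin known from nail development, had 1, 0 and 2 reads in WT replicates 1 to 3, or an RPKM of 0.03, 0 and 0.09. In DISC1-Δ3 replicates 1 to 3, Rspo4 had 91, 142 and 105 reads, or an RPKM of 2.92, 4.02 and 3.12. All DISC1-Δ3 libraries were thus far above WT libraries that lay at the limit of detection. Summed over each genotype and scaled by effective library size, the ratio of reads of Rspo4 was 106 (exact 95% interval 36.1 to 519, which covers counting error only), and the edgeR test gave an adjusted p of 5.71e-10. The fitted log2 fold change of Rspo4, which depends on the prior count and is no bound, was 6.57, and 6.64 without DISC1-Δ3 replicate 3. Rspo4 entered this fit through its DISC1-Δ3 libraries, a selection that favours a difference. The fit without the filter gave 6.56 (adjusted p = 2.53e-19, edgeR).

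Rspo3 (chr10:29453106-29535867), an R-spondin known for its part in vascular development, had an RPKM of 0.81, 0.81 and 0.54 in WT and of 3.21, 3.49 and 3.59 in DISC1-Δ3. The lowest DISC1-Δ3 library was well above the highest WT library, and the spread within each genotype was small beside this gap. Its log2 fold change was 2.17 (standard error 0.19, 95% interval 1.78 to 2.57, adjusted p = 5.01e-08, edgeR), which corresponds to a 4.51-fold higher level. Without DISC1-Δ3 replicate 3 it was 2.14.

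Rspo1 (chr4:124986401-125009102), the R-spondin known from ovarian differentiation, had the highest RPKM of the R-spondins in the WT libraries. Its RPKM was 1.78, 1.90 and 1.67 in WT and 2.57, 2.13 and 2.91 in DISC1-Δ3, from 41 to 53 and 58 to 79 reads. The groups did not overlap, but the log2 fold change of Rspo1 of 0.42 (standard error 0.19, 95% interval 0.03 to 0.82) did not pass the threshold, with an adjusted p of 0.0817 (edgeR). Without DISC1-Δ3 replicate 3 the log2 fold change was 0.31. The call depended on scaling, since library totals gave an adjusted p of 0.0384. The annotated gene overlaps a long non-coding RNA, Gm12930, which has no row in the table used here.

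Rspo2 (chr15:43020788-43171594), the R-spondin known from limb and lung development, was close to the limit of detection in both genotypes. It had 4, 1 and 9 reads in WT and 2, 5 and 8 reads in DISC1-Δ3, and these ranges overlapped almost completely. The ratio of summed reads of Rspo2 was 1.01 (exact 95% interval 0.455 to 2.26, counting error only). The fit without the filter, which takes in the spread between libraries, gave a log2 fold change of 0.01 (95% interval -1.37 to 1.38). Differences within this wider interval are not excluded at this depth.

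Together the R-spondins summed to an RPKM of 2.71, 2.73 and 2.45 in WT and of 8.74, 9.74 and 9.76 in DISC1-Δ3, a ratio of means of 3.58. The make-up of this sum differed between the genotypes. In WT, Rspo1 accounted for 67.8 ± 1.98% (SD, n = 3) of R-spondin RPKM, whereas in DISC1-Δ3 it accounted for 27.0 ± 4.47% (SD, n = 3). Rspo4 took 1.59 ± 1.88% in WT and 35.5 ± 5.01% in DISC1-Δ3, and Rspo3 took 27.2 ± 4.47% and 36.4 ± 0.534%. For each of these 3 shares the libraries of the genotypes did not overlap, and the two-sided exact permutation test gave p = 0.1, the smallest value that 3 against 3 libraries allow.

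**Figure D2:**
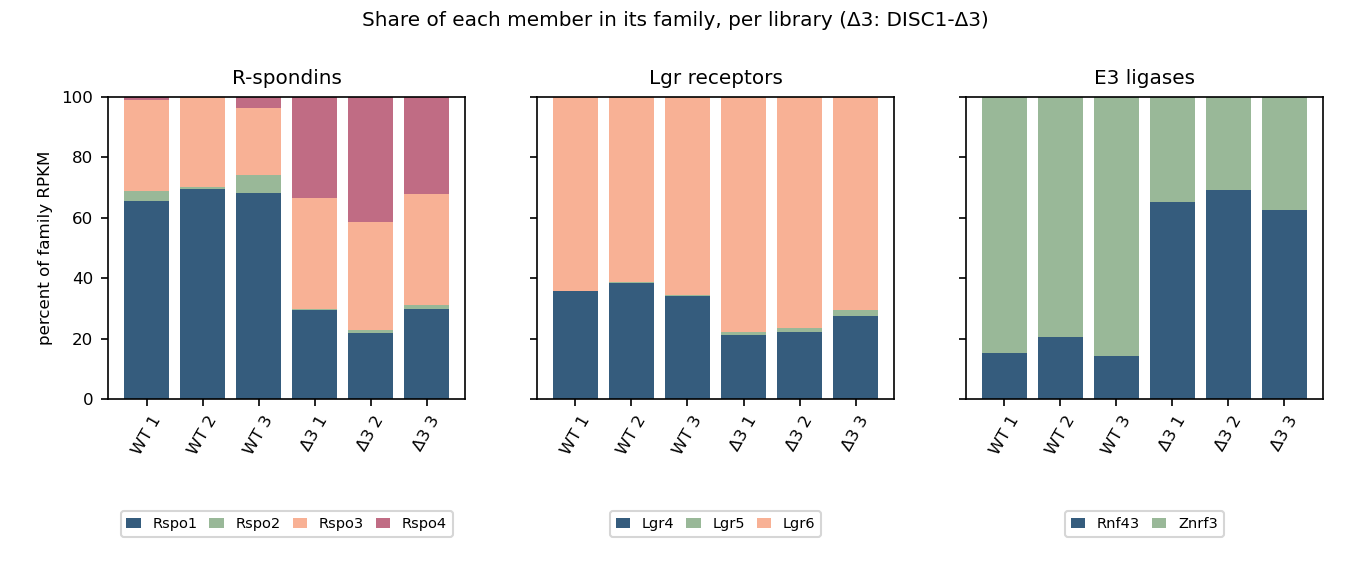
Percent of the summed RPKM of each family contributed by each member, stacked to 100 per library, for R-spondins, Lgr receptors and E3 ligases. Rspo1 made up 65.7 to 69.6% of R-spondin RPKM in WT, Rspo4 became a large component in DISC1-Δ3 only, and Rnf43 replaced Znrf3 as the larger ligase component in all 3 DISC1-Δ3 libraries.

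Of the receptors, Lgr6 rose and Lgr4 fell, both by less than 1 on the log2 scale, and Lgr5 was too low for the reported fit. Lgr6 (chr1:134983300-135105374), the most abundant of the 3 leucine-rich repeat receptors that bind R-spondins, had an RPKM of 5.52, 4.81 and 6.05 in WT and of 7.91, 7.99 and 7.00 in DISC1-Δ3. All DISC1-Δ3 libraries were above all WT libraries. The log2 fold change of Lgr6 was 0.49 (standard error 0.075, 95% interval 0.33 to 0.64, adjusted p = 4.84e-05, edgeR), and 0.55 without DISC1-Δ3 replicate 3. For Lgr6 the transcript length implied by the count, the RPKM and the library total ran from 5.57 to 6.37 kb between libraries, so its RPKM also carries differences in this length, whereas for Lgr4 it was 4.91 to 4.92 kb throughout.

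Lgr4 (chr2:109917647-110014257), a broadly expressed R-spondin receptor, was the member of the axis that fell. Its RPKM was 3.06, 3.02 and 3.13 in WT and 2.16, 2.33 and 2.74 in DISC1-Δ3, so that the WT libraries were close together and the DISC1-Δ3 libraries were spread below them. The log2 fold change of Lgr4 was -0.43 (standard error 0.11, 95% interval -0.65 to -0.21, adjusted p = 0.00366, edgeR), or 0.743 times the WT level. The library closest to WT was DISC1-Δ3 replicate 3, and without it the log2 fold change was -0.53.

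Lgr5 (chr10:115450314-115587780), a receptor known as a marker of intestinal and other epithelial stem cells, was hardly detected. It had 1, 2 and 2 reads in WT and 5, 9 and 13 reads in DISC1-Δ3, without overlap but at levels below the filter. The ratio of summed reads of Lgr5 was 5.10 (exact 95% interval 1.94 to 17.0, counting error only), and the fit without the filter placed it 2.26 higher on the log2 scale (edgeR, standard error 0.73, 95% interval 0.79 to 3.73, adjusted p = 0.0136). Lgr5 contains a second annotated gene, A930009A15Rik, with 10 to 12 reads in WT and 11 to 20 reads in DISC1-Δ3. Whether counting took strand into account is not given in the sources used here, so reads of these overlapping genes may be shared.

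The summed Lgr RPKM was 8.56 ± 0.676 (SD, n = 3) in WT and 10.2 ± 0.261 (SD, n = 3) in DISC1-Δ3, a ratio of 1.19. Within it, the share of Lgr6 was 63.7 ± 2.29% in WT and 75.0 ± 3.91% in DISC1-Δ3, and the share of Lgr4 was 36.0 ± 2.25% and 23.7 ± 3.4% (n = 3 each, exact permutation p = 0.1 for both shares). Per library, the log2 ratio of Lgr6 to Lgr4 RPKM was 0.851, 0.671 and 0.951 in WT and 1.87, 1.78 and 1.35 in DISC1-Δ3. The preference for Lgr6 transcripts was thus present in WT and larger in each DISC1-Δ3 library.

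Of the ligases, Rnf43 rose many times more than Znrf3. Rnf43 (chr11:87663087-87735539) had 29, 40 and 25 reads in WT and 377, 488 and 502 reads in DISC1-Δ3, which correspond to an RPKM of 0.47, 0.54 and 0.34 and of 6.08, 6.87 and 7.10. The libraries of each genotype were close together relative to the gap between genotypes. The log2 fold change of Rnf43 was 3.77 (standard error 0.14, 95% interval 3.47 to 4.07, adjusted p = 6.66e-13, edgeR), a 13.6-fold higher level (95% interval 11.1 to 16.8), and it was 3.73 without DISC1-Δ3 replicate 3. Rnf43 entered this fit through its DISC1-Δ3 libraries, a selection that favours a difference. The fit without the filter gave 3.77 (95% interval 3.48 to 4.05, adjusted p = 9.83e-27, edgeR). A non-coding RNA, 1110028F11Rik, lies over the second Rnf43 start shown above and a pseudogene, Gm25968, lies elsewhere within the gene, and neither has a row in the table used here.

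Znrf3 (chr11:5276329-5444847), the paralog of Rnf43 on the same chromosome, was the predominant ligase in WT. Its RPKM was 2.65, 2.11 and 2.07 in WT and 3.26, 3.04 and 4.24 in DISC1-Δ3. All DISC1-Δ3 libraries exceeded the WT libraries, and DISC1-Δ3 replicate 3 was the highest. The log2 fold change of Znrf3 was 0.54 (standard error 0.12, 95% interval 0.28 to 0.80, adjusted p = 0.00188, edgeR), a 1.46-fold higher level, and 0.39 without DISC1-Δ3 replicate 3.

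**Figure D3:**
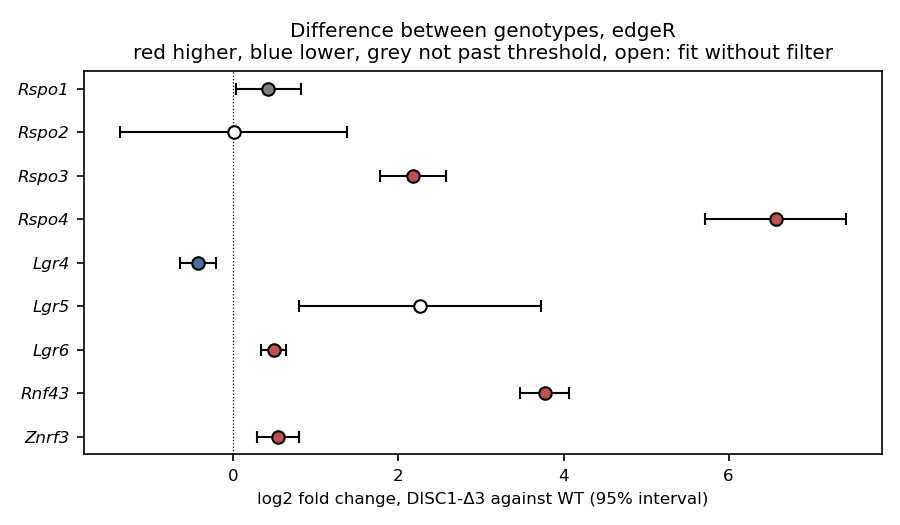
Log2 fold change of each member, DISC1-Δ3 against WT, with its 95% interval derived from the edgeR test. Filled points are the 7 tested members (red higher, blue lower, grey not past the threshold) and open points are Rspo2 and Lgr5 from the fit without the filter. The intervals of Rspo3, Rspo4 and Rnf43 lie far to the right of 0, Lgr4 alone lies to the left, and that of Rspo2 spans -1.37 to 1.38.

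The different response of the ligases changed which of them predominated. Rnf43 made up 16.5 ± 3.38% (SD, n = 3) of ligase RPKM in WT and 65.7 ± 3.39% (SD, n = 3) in DISC1-Δ3 (two-sided exact permutation test, p = 0.1, the smallest possible). The log2 ratio of Rnf43 to Znrf3 RPKM was -2.50, -1.97 and -2.61 in the WT libraries and 0.899, 1.18 and 0.744 in the DISC1-Δ3 libraries. Rnf43 was thus the less abundant ligase in each WT library and the more abundant one in each DISC1-Δ3 library.

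Per length, the order of the members also differed between genotypes. In WT the mean RPKM descended from Lgr6 (5.46 ± 0.622) through Lgr4 (3.07 ± 0.0557), Znrf3 (2.28 ± 0.324) and Rspo1 (1.78 ± 0.115) to Rspo3 (0.72 ± 0.156) and Rnf43 (0.45 ± 0.101; SD, n = 3 each). The ranges of Rspo3 and Rnf43 met at 0.54, and Rspo2, Rspo4 and Lgr5 at the bottom overlapped. In DISC1-Δ3 Lgr6 (7.63 ± 0.55) and Rnf43 (6.68 ± 0.535) stood at the top with overlapping ranges. They were followed by Znrf3 (3.51 ± 0.639), Rspo3 (3.43 ± 0.197) and Rspo4 (3.35 ± 0.586), which overlapped each other, and by Rspo1 (2.54 ± 0.391) and Lgr4 (2.41 ± 0.298), which overlapped as well. Lgr5 and Rspo2 remained at the bottom, with 0.127 ± 0.0503 and 0.0933 ± 0.0503.

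The ligases were then set beside the receptors they act on. The summed RPKM of Rnf43 and Znrf3 was 3.12, 2.65 and 2.41 in WT and 9.34, 9.91 and 11.3 in DISC1-Δ3. The 10 Frizzled receptors summed to 66.1 ± 2.47 in WT and 93.1 ± 4.41 in DISC1-Δ3, and the co-receptors Lrp5 and Lrp6 to 37.6 ± 1.70 and 30.1 ± 0.587 (SD, n = 3 each). Expressed as a percent of summed Frizzled and Lrp RPKM, the ligases were at 2.91, 2.53 and 2.43 in WT and at 7.30, 8.04 and 9.59 in DISC1-Δ3, which did not overlap (two-sided exact permutation test, p = 0.1, the smallest possible). Relative to WT, ligase transcripts therefore increased more than the summed transcripts of their substrates, with ratios of means of 3.74 and 1.19. In RPKM the substrates gained more, at 19.4 against 7.47.

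**Figure D4:**
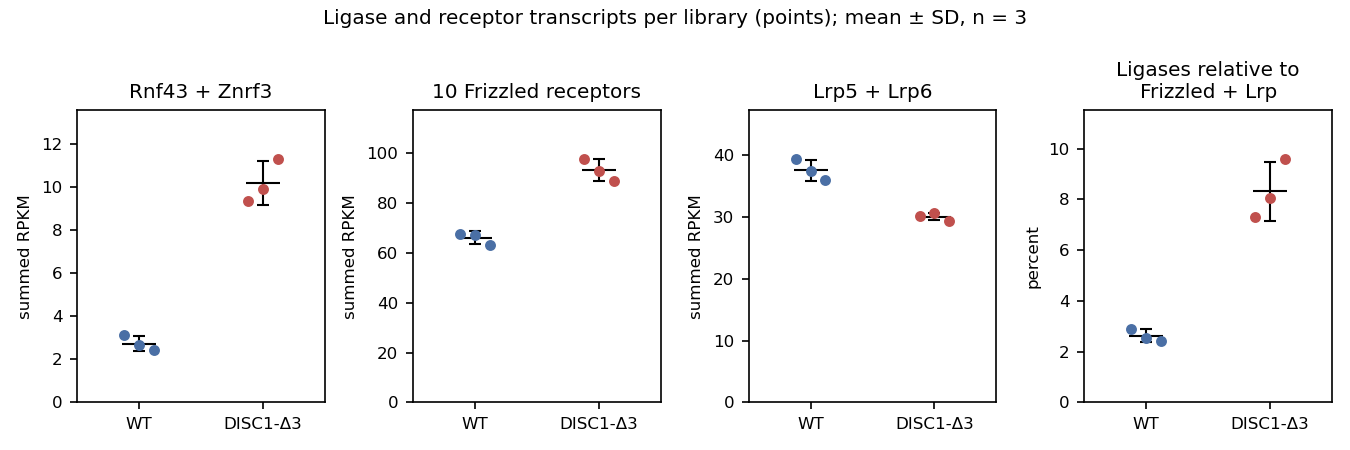
Summed RPKM of both ligases, of the 10 Frizzled receptors and of Lrp5 with Lrp6, and the ligases as a percent of Frizzled plus Lrp, per library. Points are libraries and bars are mean ± SD with n = 3. Ligases rose from 2.73 ± 0.361 to 10.2 ± 1.03 and Frizzled from 66.1 to 93.1, whereas Lrp5 and Lrp6 were lower in all DISC1-Δ3 libraries.

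The individual Wnt receptors did not move together. Of 12 Frizzled and Lrp genes, all tested, 2 rose and 5 fell, beside 20.4% and 19.5% of all tested genes. Their median log2 fold change was -0.05, against 0.0075 for all tested genes. Without WT replicate 1 or without WT replicate 2, and with library totals or limma, 3 fell. Fzd10 rose from an RPKM of 10.2 ± 0.934 to 32.7 ± 2.29 (log2 fold change 1.60, adjusted p = 1.63e-11, edgeR) and Fzd1 from 4.95 ± 0.263 to 9.97 ± 0.135 (log2 fold change 0.93, adjusted p = 1.64e-08). Fzd4 fell (log2 fold change -0.53, adjusted p = 0.0085), as did Lrp5, the most abundant of the list in WT, from 33.4 ± 1.5 to 26.6 ± 1.26 (log2 fold change -0.41, adjusted p = 5.73e-06; edgeR, n = 3 throughout). The other 3 that fell were Fzd7, Lrp6 and Fzd2, with log2 fold changes of -0.36, -0.33 and -0.22. This list, like the following ones, was written with earlier results of these data known, and the counts are descriptions.

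Downstream of the receptors, the Dishevelled proteins recruit the ligases to Frizzled and casein kinase 1 enzymes phosphorylate Lrp6 and Dishevelled. Of these 6 genes 4 rose and 1 fell (median log2 fold change 0.15), whereas 39.9% of all tested genes were called. With any 1 library left out 2 were called higher rather than 4, and the 1 lower call, Csnk1e, was lost with library totals, with both limma fits and without WT replicate 2 or 3. Dvl3 and Dvl2 had log2 fold changes of 0.26 and 0.24 (adjusted p = 0.000341 and 0.0122, edgeR), and Csnk1e, the most abundant at an RPKM of 84.9 ± 2.01 in WT (n = 3), had one of -0.13 (adjusted p = 0.0185, edgeR). Heparan sulfate proteoglycans bind R-spondins at the cell surface, and of their 10 core proteins 5 rose and 2 fell, with a median log2 fold change of 0.16. Sdc1 rose from an RPKM of 2.82 ± 0.122 to 7.55 ± 0.0557 (n = 3, log2 fold change 1.36, adjusted p = 5.09e-09, edgeR) and Gpc4 was higher by 0.83 on that scale (adjusted p = 3.16e-07). Gpc5 and Sdc3 fell, with log2 fold changes of -0.38 and -0.19 (adjusted p = 9.24e-05 and 0.00217), and Sdc3 was the most abundant core at an RPKM of 187 in WT.

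Of 13 genes commonly used as Wnt/β-catenin targets, 10 rose and 0 fell in the edgeR test, beside 20.4% and 19.5% of all tested genes. The median log2 fold change of the 13 targets was 1.23. At an unadjusted p under 0.05, 1 of them, Myc, was lower by edgeR and by DESeq2, and 0 by limma. This direction was already known from earlier results of these data and is not independent evidence. Notum, whose secreted product strips Wnts of their lipid, rose from an RPKM of 5.97 ± 0.165 to 200.3 ± 2.33 (n = 3, log2 fold change 5.02, adjusted p = 2.05e-20, edgeR), and Sp5, a transcription factor, was higher by 3.60 on that scale (adjusted p = 1.02e-12). Rnf43, at 3.77, lay between these genes, and Znrf3, at 0.54, was near Cd44, at 0.51, and Nkd2, at 0.47, which had the smallest rises of the list. The 3 targets that did not pass were Myc, the most abundant in WT at an RPKM of 48.4 ± 1.14 (n = 3, log2 fold change -0.12, adjusted p = 0.0642), Ccnd1 (0.03, adjusted p = 0.725) and Ascl2 (-0.07, adjusted p = 0.868; its sign changed with scaling by library totals).

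The relatives of the members in protein family were examined for comparison. Rnf43 and Znrf3 belong to the PA-TM-RING ligases, which share a protease-associated domain, a membrane span and a RING finger. Of all tested genes, 20.4% rose and 19.5% fell. Among 9 further PA-TM-RING genes 7 were tested, and 1 rose and 4 fell, with a median log2 fold change of -0.17. The 1 higher call, Rnf149, was lost with DESeq2 and without WT replicate 1 or 3 or DISC1-Δ3 replicate 1 or 2, and 2 were lower without WT replicate 3 or with library totals. Rnf149 was higher by 0.18 on the log2 scale (adjusted p = 0.0288, edgeR), whereas Rnf167 and Rnf13 had -0.33 and -0.32 (adjusted p = 0.000235 and 0.0001), and Rnf130, the most abundant at an RPKM of 117 in WT, had -0.15 (adjusted p = 0.0258). None of these neared the difference of Rnf43. Among 4 other leucine-rich repeat G protein-coupled receptors, the hormone receptor family to which the Lgr genes belong, 1 was tested and 0 were called (edgeR, also 0 at an unadjusted p under 0.05 and by DESeq2 and limma). This gene was Lhcgr, with a log2 fold change of 0.15 (adjusted p = 0.759).

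For each member past the threshold, the 3 tested genes with the most similar profile over the 6 libraries were sought by Euclidean distance between gene-centred log2 CPM values with a prior count of 2. The likeness is a description over libraries that share 1 contrast. Rspo3 was closest to Hcn4 (distance 0.328), Cacna1i and Akr1b8, and Rspo4 to Twist2 (0.574), Adgrd1 and Emilin3. Lgr6 was closest to Tmem59l (0.0327), Zfp428 and Bcar1, and Lgr4 to Msl2 (0.0605), Fyb and Asap1. Rnf43 was closest to Osr2 (0.477), D630039A03Rik and Cyp2e1, and Znrf3 to Zic5 (0.187), Dcc and Col5a1. The nearest genes of Rnf43 and Rspo4 were more distant than those of the members with smaller changes. The measure favours this order, because the profiles were not scaled for the size of the change. Osr2 and Cyp2e1 had fitted log2 fold changes of 6.17 and 7.53, beside 3.77 for Rnf43, and the prior count compresses such low genes.

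Markers of several cell types moved with genotype alongside the members. The counts below stand beside 20.4% of all tested genes called higher and 19.5% called lower. For the summed RPKM of each list, neuronal markers were at 307 to 309.7 in WT and 362 to 387 in DISC1-Δ3, with 6 of 6 genes higher. Mural markers were at 142 to 152 and 201 to 207 (5 of 6 higher), and endothelial markers at 94.4 to 98.4 and 125 to 126 (3 of 6 higher). Meningeal fibroblast markers were at 27.0 to 28.6 and 30.4 to 33.4, and 0 of the 6 genes passed the edgeR test in either direction, 0 at an unadjusted p under 0.05 or by DESeq2 and 1 by limma. Ependymal and choroid plexus markers were at 782 to 899.8 and 1011 to 1136 (1 of 6 higher), led by Ttr. Among glia, OPC markers were 4 of 6 higher and 1 lower, those of differentiated oligodendrocytes were at 2441 to 2473 and 2255 to 2287 (5 of 6 lower), led by Mbp, and those of astrocytes at 1625 to 1655 and 1610.3 to 1627 (4 of 6 lower and 1 higher), led by Aldoc. The part of these cell types in the differences of the R-spondin, Lgr and ligase genes was not tested. The largest ratio of a summed marker level between a library of one genotype and a library of the other was 1.48, for microglia, which were lower in DISC1-Δ3. This ratio is of RPKM in single libraries, whereas the folds that follow are edgeR estimates over all libraries, so the measures are unlike. A sum is weighted to the most abundant genes of its list, and cell types outside the lists are not covered. The ratio is therefore no measure of the part of cell types, which was not tested. Slc17a6 was the single marker with the largest fold, at 2.28. The fitted folds of the members were 1.40 for Lgr6, 1.46 for Znrf3, 1.34 for Rspo1, 0.743 for Lgr4, 4.51 for Rspo3 and 13.6 for Rnf43. Rspo4, whose WT libraries lay at the limit of detection, is not in this list.

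The direction of each tested member was the same in the 14 alternatives to the reported fit, and the sizes varied most for Rspo4, whose WT libraries hold few reads.

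**Figure D5:**
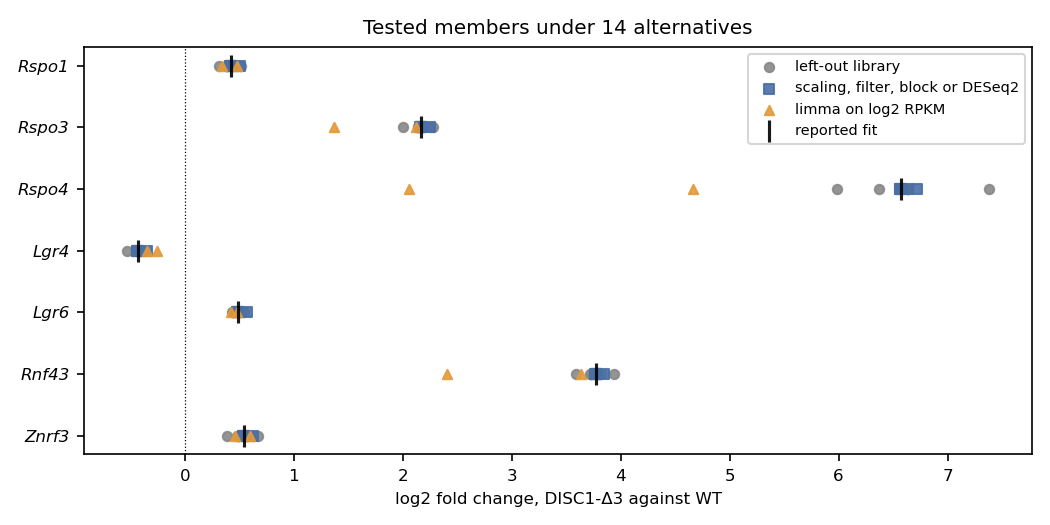
Log2 fold change of the 7 tested members in the reported edgeR fit (bars) and under 14 alternatives: each library left out, other scalings and filters, the replicate block and DESeq2, and limma on log2 RPKM. All values of Lgr4 lie left of 0 and those of the other 6 lie to the right, and the limma values of Rspo3, Rspo4 and Rnf43 are smaller because the pseudocount compresses low levels.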

How the data were processed

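RNA-seq libraries of 3 WT and 3 DISC1-Δ3 samples were analysed, with groups taken from the labels. The authors deposited an expected count and an RPKM per gene and library. The expected counts deposited by the authors are estimates in which reads matching several genes may be divided: 90.2% of values above 0 were whole, as were all 54 member values. The RPKM deposited by the authors are counts scaled by transcript length and library total, without further scaling between libraries. The submitters' processing notes name Bowtie2 2.2.5 and mm10. The counting tool and annotation are not given in the sources used here, and the study names DESeq2 for its own comparison. The table's 4 columns of averages were left out, and genes were followed by gene ID because 26 symbols read as dates (18085 of 18211 IDs matched the reference).

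Expected counts were rounded and tested with edgeR 4.0.16 in R 4.3.3 (TMM scaling, quasi-likelihood test, two-sided, genotype only) for genes whose RPKM reached 0.5 in 3 or more libraries. Benjamini-Hochberg adjustment covered all 13792 tested genes, with a threshold of 0.05. Single values were compared by exact permutation tests. Read ratios have exact binomial intervals for counting error only, since reads carry no molecular identifiers and may be PCR copies. Alternatives were RLE scaling, library totals, no filter, an RPKM filter at 1, DESeq2 1.42.0, limma 3.58.1 on log2(RPKM + 1) and log2(RPKM + 0.1), a replicate block, each library left out, and CPM in place of RPKM for shares. CPM and leave-one-out for the ligase balance were chosen after seeing the data.

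The members and gene lists were chosen with earlier results of these data known. Named genes were the members, Disc1, Cspg4, the leading marker of the lists, the most similar profiles, and in each pathway list the 2 largest rises and falls and the most abundant gene. Fzd2, Fzd7, Lrp6, Cd44, Nkd2, Ccnd1, Ascl2, Slc17a6 and Pdgfra were named after their values were seen. The numbers of replicates did not pair the libraries.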

Additional observations from a re-analysis of the deposited data

How the results depend on the processing

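Rspo4 and Rnf43 passed the filter through their DISC1-Δ3 libraries, which favours a difference, so the stability of their calls is a description. The calls of the tested members held under 95 of 98 alternatives, and none reversed or was lost. The other 3 brought Rspo1 past the threshold: library totals (adjusted p = 0.0384) and limma on log2(RPKM + 1) and log2(RPKM + 0.1) (0.0204 and 0.0228), and without single libraries its adjusted p ran from 0.0581 to 0.235. The limma fit to log2(RPKM + 1) gave smaller log2 fold changes for the members that are low in WT: 1.37 for Rspo3, 2.06 for Rspo4 and 2.41 for Rnf43, where the pseudocount compresses differences. For Rspo4, which rests on 3 WT reads, the log2 fold change was 7.38 without WT replicate 3, which holds 2 of them, and its range over left-out libraries was 5.99 to 7.38. No member call rests on DISC1-Δ3 replicate 3.

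With the replicate block, 2774 genes were higher and 2655 lower, and 5 and 1 of the members; it changed no member or list count. The replicate numbers did not pair the libraries (correlations of deviations 0.0444, 0.0263 and -0.0288). Genes called lower numbered 2691, but 1774 and 1763 with limma, and 1836 with library totals, which had 4126 higher. By DESeq2, 2229 were higher and 2371 lower.

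List counts were less stable than member calls. Frizzled and Lrp genes called lower were 3 rather than 5 with library totals and both limma fits, and 3 to 5 without single libraries. Dishevelled and casein kinase genes called higher were 2 rather than 4 without each library in turn, and those called lower were 0 with library totals and both limma fits, and 0 to 1 without single libraries. Proteoglycans called lower were 1 with limma on log2(RPKM + 0.1). Wnt targets called lower were 1 without DISC1-Δ3 replicate 3 (Myc) and 0 without each other library. PA-TM-RING genes called higher were 0 with DESeq2 and 0 to 1 without single libraries, and those called lower were 2 with library totals and 2 to 5 without single libraries. Of genes that did not pass the test, the log2 fold change of Ascl2 changed sign with library totals (0.0167) and limma (0.0501 and 0.117) and was -0.197 to 0.0961 without single libraries, that of Ccnd1 was -0.0351 to 0.0507 and that of Lhcgr -0.141 to 0.486.

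From CPM in place of RPKM, the share of Rnf43 in the ligases differed by 43.5 points and that of Znrf3 by -43.5, against 49.2 and -49.2, and the ligase percent of Frizzled and Lrp differed by 7.03 rather than 5.69 points. CPM carries no length, which the construction of the shares explains. With 14 reads of Rspo2 and 3 of Rspo4 in all WT libraries, depth limits what could be detected. For Rspo2, Lgr5 and other genes under the filter no edgeR call is reported beyond the fit without it.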
